A study of Mus musculus with 6 samples.

Results

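The Ikaros family of transcription factors was followed in mouse cells sorted as regulatory T cells (Treg). Treg restrain immune responses under the control of Foxp3. The family was taken as Ikzf1 (Ikaros), Ikzf2 (Helios), Ikzf3 (Aiolos) and Ikzf4 (Eos), and a member was any probe set, the group of array oligonucleotides that reports 1 transcript, whose only annotated symbol is one of these genes. This gave 4 of 22626 gene probe sets, standing for 3 of the 4 genes: 1 for Ikzf1, 1 for Ikzf2 and 2 for Ikzf4. Of the annotation used here, 0 probe sets carry Ikzf3 as their symbol, and 0 carry that of the related Ikzf5, so Aiolos and Pegasus were not analysed here.

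RNA came from CD4+YFP+ cells of mice of C57BL/6 background, with 1 array for each of 3 USP7-titled and 3 control samples. The series text describes the USP7-titled mice as a conditional Usp7 knockout made with Foxp3cre, while the genotype field of those arrays reads fl-HDAC11/Foxp3cre, and groups were therefore taken from the titles. Controls carry B6_WT titles and the genotype Foxp3cre, so both groups share the Cre allele, which acts where Foxp3 is expressed. The samples are called independent, but no label names the animals, so the tests reflect only the spread of these 3 arrays per group, which may be technical.

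Ikaros proteins bind DNA through zinc fingers near one end and pair with each other through zinc fingers at the other end, so members can form mixed dimers. Ikaros is found with the nucleosome remodelling and deacetylase complex (NuRD), and the family also recruits CtBP and Sin3 corepressors. In mouse Treg, Eos works with Foxp3 and CtBP1 in gene silencing, Helios marks most thymus-derived Treg and helps keep their identity stable, and Ikaros is made across lymphocytes.

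The arrays resembled each other closely within groups (Pearson's r across gene probe sets 0.9917 to 0.9927 among USP7-titled arrays and 0.9950 to 0.9958 among controls) and less between groups (0.9703 to 0.9749). Usp7 averaged 10.67 on the log2 scale in USP7-titled arrays and 11.68 in controls, and Hdac11 averaged 5.81 in USP7-titled arrays and 6.38 in controls. Groups did not overlap for either gene, nor for 45.6% of all genes, and Hdac11 lay below the array medians of 7.91 to 7.96. Xist read 4.63 to 5.65 in USP7-titled arrays and 12.43 to 12.54 in controls, and the Y-linked Eif2s3y 10.09 to 10.19 in USP7-titled arrays and 3.99 to 5.25 in controls, so for every value here sex cannot be told apart from group. Of 10 T cell and Treg markers 7 fell and 0 rose, with changes given on the log2 scale. Among all genes, 32.9% passed the same limma test, 17% higher and 15.9% lower. Cd4 (0.01, limma adjusted p = 0.773), Cd3d (-0.07, limma adjusted p = 0.118) and Cd3g (-0.09, limma adjusted p = 0.063) did not pass. Cd3e passed at -0.11 (limma adjusted p = 0.0437). Cd5 (-0.21, limma adjusted p = 0.00222), Il2ra (-0.17, limma adjusted p = 0.00207) and Tnfrsf18 (-0.12, limma adjusted p = 0.0374) were also lower, as were Cd28, Ctla4 and Foxp3, given further below.

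Eos was the member that fell furthest, and both of its probe sets fell. The brighter probe set of Ikzf4 (1460664_at, gene on chromosome 10) read 10.30, 10.38 and 10.53 in USP7-titled arrays and 11.16, 11.19 and 11.11 in controls. The highest USP7-titled array lay well below the lowest control. Its mean was 10.41 ± 0.12 in USP7-titled arrays and 11.15 ± 0.04 in controls (SD, n = 3 each). On the log2 scale it changed by -0.75 with an SE of 0.07 and a 95% interval of -0.91 to -0.58, and 59.6% of the control signal was left (limma adjusted p = 2.73e-05). The dimmer probe set of Ikzf4 (1438274_at) read 9.69, 9.83 and 9.71 in USP7-titled arrays and 10.48, 10.18 and 10.49 in controls. Again the groups did not overlap, although control replicate 2 was the lowest of the controls. This probe set changed by -0.64 (SE 0.10, 95% interval -0.86 to -0.42), to 64.2% of control (limma adjusted p = 0.000632). In bulk RNA, fewer cells with Eos and less Eos transcript per cell cannot be told apart.

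Helios was lower by a small amount that did not hold under every setting. The Ikzf2 probe set (1421643_at, gene on chromosome 1) read 10.90, 10.75 and 10.87 in USP7-titled arrays and 11.07, 11.11 and 10.97 in controls. The groups did not overlap, but the nearest USP7-titled and control arrays were close. USP7-titled arrays kept 86.5% of the control signal, a change of -0.21 (SE 0.07, 95% interval -0.36 to -0.06, limma adjusted p = 0.0366). It no longer passed at -0.16 with USP7-titled replicate 2 left out (limma adjusted p = 0.135), at -0.23 with USP7-titled replicate 3 left out (limma adjusted p = 0.0597), at -0.20 with control replicate 1 left out (limma adjusted p = 0.109) or at -0.18 with control replicate 2 left out (limma adjusted p = 0.131). Scaled to the hybridization spikes, bacterial RNAs added to each array mix, it was -0.05 (limma adjusted p = 0.683).

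Ikaros did not pass the test. The Ikzf1 probe set (1421303_at, gene on chromosome 11) read 11.58, 11.59 and 11.61 in USP7-titled arrays and 11.71, 11.78 and 11.48 in controls. The 3 USP7-titled values fell inside the range of the controls, whose replicate 3 was the lowest of all 6 arrays. The change was -0.06 (SE 0.07, limma adjusted p = 0.555), with a 95% interval of -0.22 to 0.10, and its sign turned to 0.10 under spike scaling (limma adjusted p = 0.387). The result hung on 1 control: without control replicate 3 the change was -0.15 and passed (limma adjusted p = 0.0432). In that array the Gapdh probe set at the 3' end exceeded the one at the 5' end by 1.23 on the log2 scale, a gap that grows as RNA breaks down, and the other arrays had 0.907 to 1.08. The same gap for actin was also highest in that array, at -0.151. It lay close to the -0.180 to -0.155 of USP7-titled arrays and above the -0.286 and -0.249 of the other controls. The part of RNA quality in the result was not tested.

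**Figure D1:**
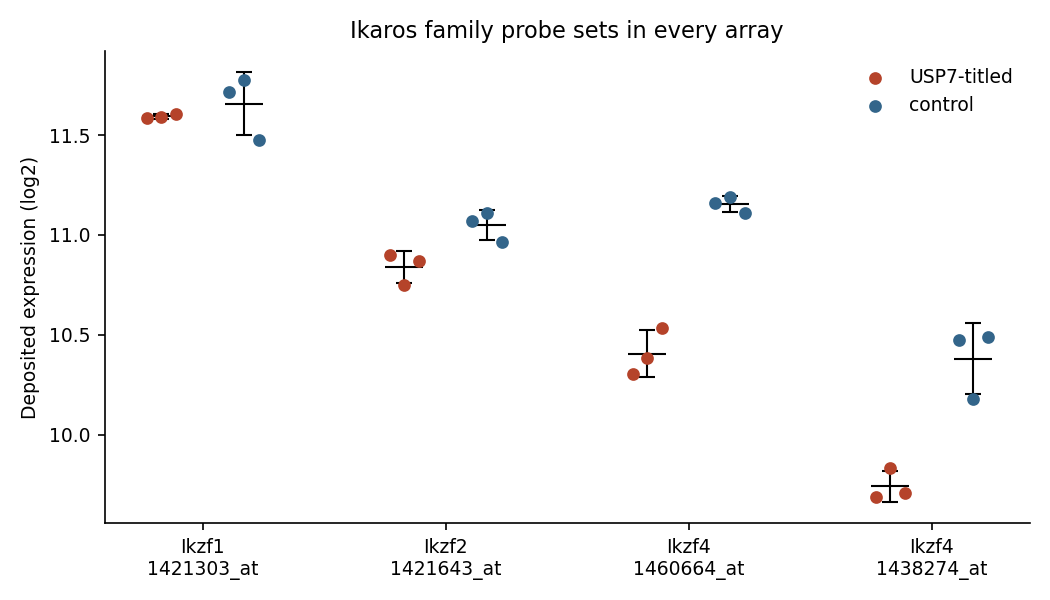
Deposited log2 expression of the 4 Ikaros family probe sets in each array, USP7-titled in red and control in blue; bars give mean ± SD (n = 3 each). Both Ikzf4 probe sets and the Ikzf2 probe set have groups that do not overlap, whereas the USP7-titled Ikzf1 values of 11.58 to 11.61 lie within the control range of 11.48 to 11.78.

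These counts have to be read against a comparison in which much of the array differed. Of the 4 member probe sets 3 passed, all lower, while 33.3% of all gene probe sets passed (16.2% higher and 17.1% lower). Groups did not overlap for 3 of 4 members and for 45.7% of all gene probe sets. By size, 9.02% of all gene probe sets changed by more than the brighter Ikzf4 probe set in either direction and 12.4% by more than the dimmer one, against 51.6% for Ikzf2 and 84.1% for Ikzf1. The change of Ikzf2 was thus close in size to that of the median probe set, and those of Ikzf4 were among the larger ones. The two-sided exact permutation p was 0.1 for Ikzf2 and both Ikzf4 probe sets, the smallest that 3 arrays against 3 allow, and 0.6 for Ikzf1.

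Members were also set against each other within each array, which removes any shift of a whole array. Ikzf4 minus Ikzf2 was -0.59, -0.37 and -0.34 in USP7-titled arrays and 0.09, 0.08 and 0.15 in controls, a difference of -0.54 between the groups. Ikzf4 minus Ikzf1 differed by -0.69 and Ikzf2 minus Ikzf1 by -0.15. For these 3 pairs the groups did not overlap, and the two-sided exact permutation p was 0.1 for each, also after adjustment over the 3 pairs, so the design could not reach 0.05. With quantile normalization the exact permutation p of Ikzf2 minus Ikzf1 was 0.2, at a difference of -0.14. The 2 Ikzf4 probe sets differed in their change by -0.11 (exact permutation p = 0.5), and the sign of that difference turned to 0.0116 without control replicate 2.

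The genes beside each member on its chromosome were examined by order in the reference table, taking the nearest 2 measured genes on each side, a choice made after the member values were seen. Around Ikzf4, Rps26, a ribosomal protein gene, was at -0.05, Suox, sulfite oxidase, at 0.14 and the receptor gene Erbb3 at 0.24, and none of these passed (limma adjusted p = 0.166 to 0.401). Rab5b, a GTPase of early endosomes, fell by 0.45 on the log2 scale (limma adjusted p = 0.0316). Beside Ikzf1, Fignl1, a DNA repair ATPase, rose by 2.88 (limma adjusted p = 7.99e-08), while Zpbp and Ddc were at -0.56 and -0.88 (limma adjusted p = 0.00777 and 0.003) and Upp1, uridine phosphorylase, was at 0.07 and did not pass (limma adjusted p = 0.769). Beside Ikzf2, Bard1, the partner of BRCA1 in DNA repair, rose by 1.65 (limma adjusted p = 3.01e-05), and Erbb4, Cps1 and Fn1 did not pass (limma adjusted p = 0.378 to 0.994).

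**Figure D2:**
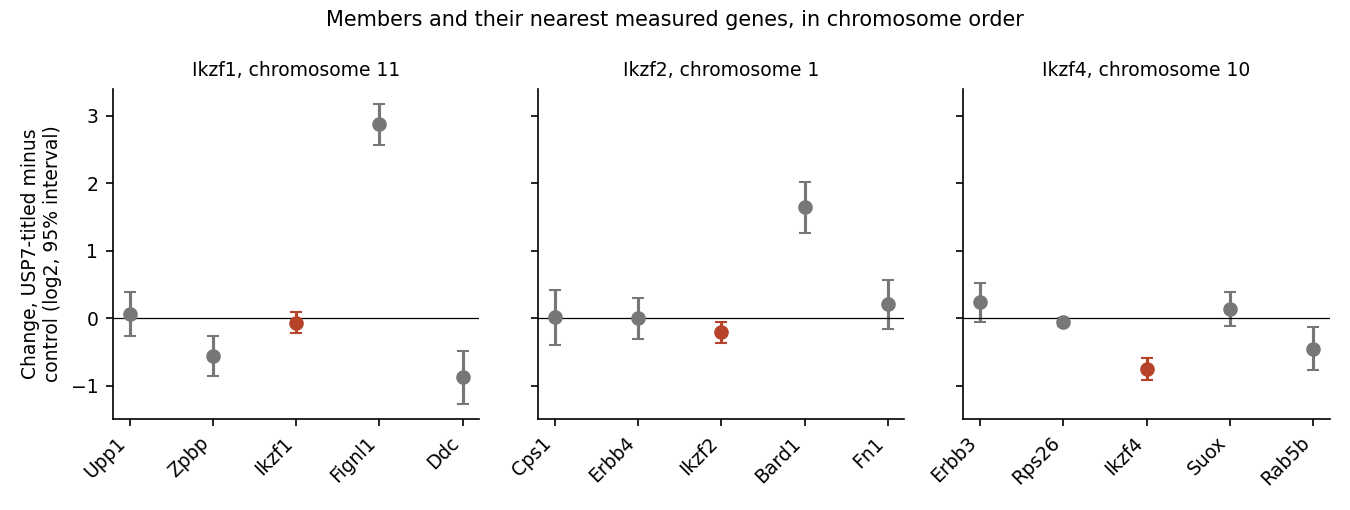
Log2 change, USP7-titled minus control, with 95% intervals for Ikzf1, Ikzf2 and Ikzf4 (red; Ikzf4 by its brighter probe set) and the nearest 2 measured genes on each side (grey), in chromosome order and not to scale along the chromosome. Ikzf4, at -0.75, lies below all 4 of its neighbours, and the large rises of Fignl1 and Bard1 flank members that changed by -0.06 and -0.21.

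Genes with the most similar profile were found by the root mean square difference over the 6 arrays, each gene centred on its own mean, among 6107 other genes brighter than the median gene. For Ikzf4 these were Leng8 (0.031 on the log2 scale), the interferon-inducible Ifi209 (0.049) and the kinase gene Araf (0.049), whose own changes were -0.77, -0.74 and -0.73. For Ikzf2 they were the transcription factor gene Stat3 (0.017), Taf1d (0.023), which encodes an RNA polymerase I factor, and the lymphocyte adaptor gene Sash3 (0.024), with changes of -0.20, -0.18 and -0.22. For Ikzf1 they were Nfatc2 (0.011), the calcium-responsive factor known as NFAT1, Tbc1d10a (0.039) and Parp14 (0.040), with changes of -0.05, -0.08 and -0.08. The Ikzf1 likenesses share the low value of control replicate 3, so they describe these arrays only.

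**Figure D3:**
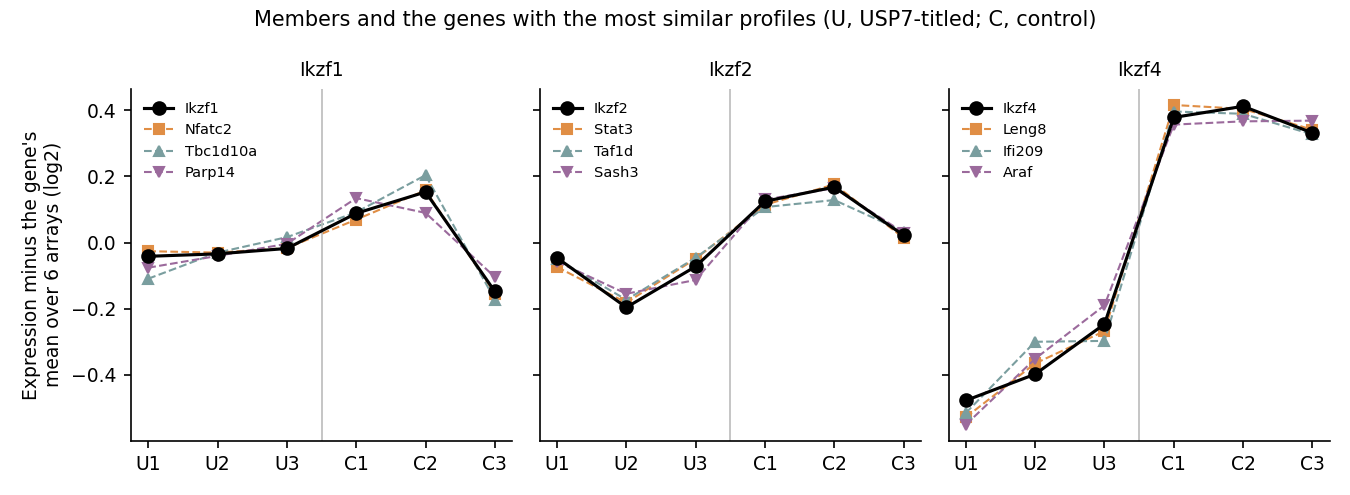
Expression of each member (black; Ikzf4 by its brighter probe set) and of the 3 genes with the most similar profile, centred on each gene's mean over the 6 arrays, log2 scale; lines join the values of 1 gene and carry no order among replicates. The Ikzf4 panel is split by group, with all USP7-titled values below all controls, while in the Ikzf1 panel control replicate 3 is the lowest array for all 4 genes.

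Genes linked to the family were counted with 1 probe set per gene, where 32.9% of 12393 genes passed (17% higher and 15.9% lower) and groups did not overlap for 45.6%. Over the 6 lists described next, 20 of 76 measured genes rose, 19 fell and 37 stayed short of the threshold, and the median change was 0.0014 against -0.05 for all genes. Under spike scaling 30 listed genes rose and 12 fell, so 71.4% of those past the threshold were higher. Among all genes 2968 rose and 944 fell (75.9% higher), with a median change of 0.11. In both, the balance of directions depends on the scaling.

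Foxp3 and other transcription factors linked to Treg moved both ways. Of 15 measured, 4 rose and 7 fell, 4 stayed short of the threshold, and the median was -0.21. Foxp3 itself read 6.85, 7.29 and 6.87 in USP7-titled arrays and 12.82, 13.13 and 12.99 in controls, a change of -5.98 (SE 0.13, limma adjusted p = 6.71e-10). Bach2, a repressor that keeps T cells quiescent, fell by 1.07 and Foxp1, another forkhead factor, by 0.85, with other Foxp1 probe sets at -1.51 to -0.91. Id2, an inhibitor of E proteins, rose by 1.24, with other probe sets at -0.10 to 1.26. In mouse Treg, Eos has been grouped with Gata1, Lef1, Satb1 and Irf4 as factors that reinforce the Foxp3 program. Chosen after their values were seen, Gata1 was at -0.73 (limma adjusted p = 0.00093), Lef1 at -0.35 (limma adjusted p = 0.00605) and Satb1 at -0.26 (limma adjusted p = 0.011), lower like Ikzf4. Irf4 was at 0.21 and did not pass (limma adjusted p = 0.0944).

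Genes that the Ikaros family is known to regulate in mouse lymphocytes split evenly. Of 25 measured, 7 rose and 7 fell, 11 stayed short of the threshold, and the median was -0.05. Interferon gamma (Ifng) read 9.20, 8.68 and 8.84 in USP7-titled arrays and 7.44, 6.90 and 7.57 in controls, a rise of 1.60 (limma adjusted p = 6.52e-05). Tbx21, the Th1 regulator T-bet, which Ikaros holds down in mouse Th2 cells, read 10.03, 10.07 and 10.11 in USP7-titled arrays and 8.82, 8.45 and 8.75 in controls, a rise of 1.40 (limma adjusted p = 4.09e-06). All USP7-titled arrays stood above all controls for both. The survival gene Bcl2 fell by 0.92 (limma adjusted p = 2.4e-07) and Myc by 0.77 (limma adjusted p = 1.22e-06). Il2, which Eos, Helios and Aiolos have each been linked to silencing in mouse T cells, is named here after its values were seen and read 6.53, 6.61 and 6.42 in USP7-titled arrays and 7.08, 6.92 and 7.59 in controls, a change of -0.67 (limma adjusted p = 0.00958). Every Il2 value lay below the array medians of 7.91 to 7.96, and any link between Il2 and Ikzf4 was not tested.

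The core letters that Ikaros fingers read, TGGGAA, were looked for on both strands in the 250 bases before each annotated start in RefSeq's promoters (GRCm38.p6). They stood in 21.6% of all 32851 promoters and in 4 of 22 promoters (18.2%) of the family-regulated genes just described. Of the members, Ikzf1 is listed there, and neither of its promoters held the letters. The 4 genes that held them were Tbx21, Cd8a, Rag1 and Il17a, of which Tbx21 alone was past the threshold; it is shown with Cd8a and Rag1, which did not pass (0.02, limma adjusted p = 0.944, and 0.21, limma adjusted p = 0.401). Capitals mark the match, on the other strand in Tbx21 and Cd8a and as written in Rag1, beginning 177, 89 and 52 bases before the start.
Tbx21, chr11:97115476-97115535, minus strand: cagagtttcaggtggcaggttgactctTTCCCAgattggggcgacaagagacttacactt
Cd8a, chr6:71373311-71373370, plus strand: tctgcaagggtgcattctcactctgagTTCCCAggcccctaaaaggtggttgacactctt
Rag1, chr2:101649552-101649611, minus strand: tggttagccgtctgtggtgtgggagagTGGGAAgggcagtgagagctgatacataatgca
A match of these letters is a description and does not show binding.

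Notch targets, which Ikaros represses in mouse thymocytes and which are listed here with Notch1, Notch3 and Rbpj, mostly did not pass. Of 10 measured, 1 rose, 0 fell and 9 stayed short of the threshold, and the median was 0.15. Under spike scaling 2 passed, as they did without USP7-titled replicate 1 or control replicate 3, and without USP7-titled replicate 3, or with array weights, 3 passed. The member that rose was Dtx1, Deltex, at 0.26 (limma adjusted p = 0.00841).

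NuRD subunits numbered 12 measured, of which 4 rose and 2 fell around a median of 0.13. Without USP7-titled replicate 3, 3 passed, and with no mean-variance trend in the fit 2 passed. Rbbp7, a histone chaperone, rose by 0.50 (limma adjusted p = 4.42e-05) and Mbd2, which reads methylated DNA, by 0.23 (limma adjusted p = 0.00242), though Mbd2 did not pass with no trend (limma adjusted p = 0.0654). Chd4, the ATPase that Ikaros contacts, read 11.69, 11.56 and 11.44 in USP7-titled arrays and 11.95, 11.86 and 11.70 in controls. Its change of -0.27 passed (limma adjusted p = 0.0189), but not without any one of USP7-titled replicate 3 (-0.21), control replicate 1 (-0.21) or control replicate 2 (-0.26), nor under spike scaling (-0.11) or with no trend, with limma adjusted p of 0.0625 to 0.294 over these 5 settings. Gatad2b fell by 0.34 (limma adjusted p = 0.00363), and did not pass under spike scaling (-0.18, limma adjusted p = 0.187).

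Among 7 measured CtBP and Sin3 corepressors, 2 rose and 2 fell around a median of -0.05. Ctbp1, the partner of Eos in mouse Treg, also named after its values were seen, read 10.83, 10.98 and 11.01 in USP7-titled arrays and 10.86, 10.65 and 10.79 in controls and did not pass (0.17, limma adjusted p = 0.121). Its relative Ctbp2 fell by 0.83 (limma adjusted p = 0.000258), with its other probe set at -0.40. The Ctbp2 values of 6.28 to 7.26 lay below the array medians of 7.91 to 7.96. The scaffold Sin3a fell by 0.63 (limma adjusted p = 0.00023), with other probe sets at -0.40 to -0.27. In contrast, Sin3b rose by 0.27 with other probe sets at -0.12 to 0.44, and the Sin3 complex subunit Sap30 rose by 1.41 (limma adjusted p = 3.7e-06).

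Cereblon, the substrate receptor through which thalidomide-type drugs cause human Ikaros and Aiolos to be degraded, belongs to a ubiquitin ligase. Of 8 listed genes of this ligase and of cullin regulators, 7 were measured, 2 rose and 1 fell. Crbn read 9.91, 9.55 and 9.62 in USP7-titled arrays and 10.11, 10.13 and 10.10 in controls, a change of -0.42 (limma adjusted p = 0.00861) with other probe sets at -0.63 and -0.37. It did not pass under spike scaling (-0.26, limma adjusted p = 0.086). Ddb1, the adaptor of the ligase, rose by 0.23 (limma adjusted p = 0.0301), but did not pass without USP7-titled replicate 2 or 3 or control replicate 1 or 2, at changes of 0.20 to 0.25 and limma adjusted p of 0.0536 to 0.115. It also did not pass with quantile normalization (0.18, limma adjusted p = 0.0738) or with no trend (limma adjusted p = 0.0721). Cops5, a subunit of the COP9 signalosome, which removes Nedd8 from cullins, rose by 0.36 (limma adjusted p = 0.00582) by its brighter probe set and was at -0.24 by the other. Outside the naming rule, the scaffolds Cul4a (-0.22) and Cul4b (-0.04) did not pass (limma adjusted p = 0.178 and 0.826).

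**Figure D4:**
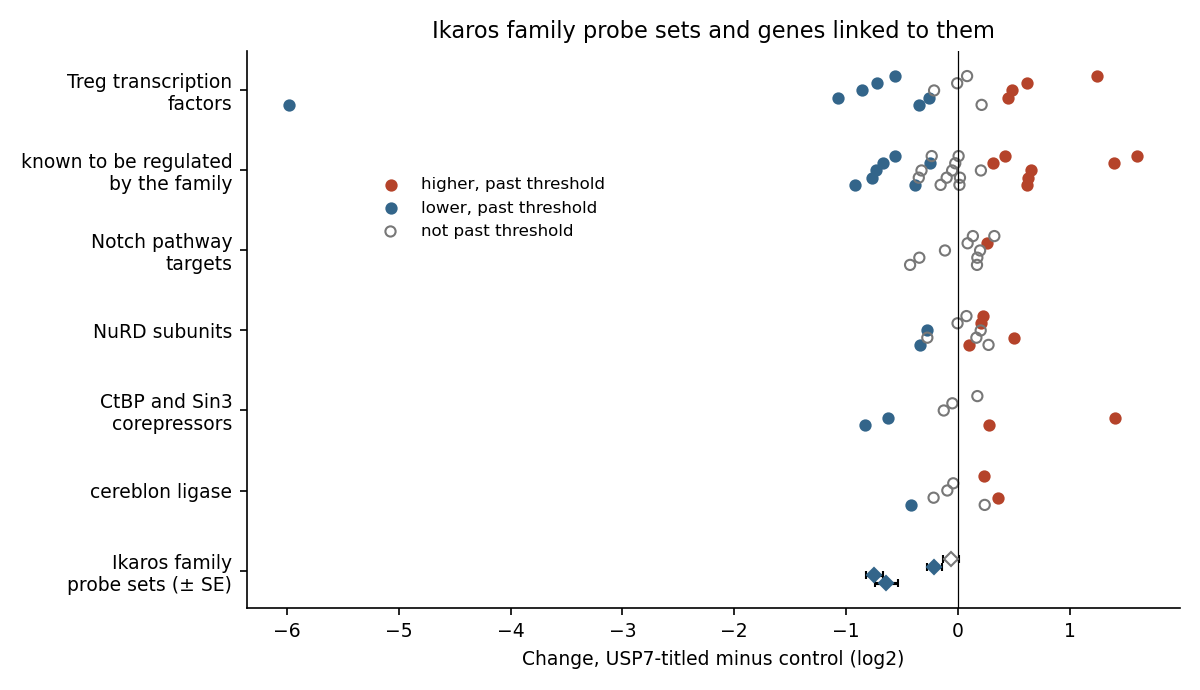
Log2 change, USP7-titled minus control, of each measured gene in 6 lists linked to the Ikaros family and, in the bottom row, of the 4 member probe sets (diamonds, ± SE); red is higher and blue lower past limma adjusted p = 0.05, open is not past it. Family-regulated genes spread to both sides, from -0.92 to 1.60, and the lone point at -5.98 is Foxp3.

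Because Ikaros family genes are also made outside Treg, markers of other cells are given beside the member results, to be read against the 32.9% of all genes that passed (17% higher and 15.9% lower). Myeloid markers rose in 11 of 18 measured and fell in 1, with a summed linear signal of 9296 to 10948 in USP7-titled arrays and 7557 to 8416 in controls. C1qb (2.86, other probe sets 1.81 to 3.18), Lyz1 (2.48, other probe sets 0.0027 to 2.31) and C1qc (2.48) rose most. Cebpb rose by 0.76, with its other probe set at 0.17. Ctss, the brightest of the list, weighs most in that sum and fell by 0.48, so the sum understates the other markers. The median change of the list was 1.15. Elane (-0.18), Mpo (-0.13), Itgam (-0.13), Cd14 (0.10), Cd68 (0.42) and Cd163 (0.58) did not pass (limma adjusted p = 0.0746 to 0.594). B cell markers rose in 6 of 14 and fell in 1, summing to 5015 to 5931 in USP7-titled arrays and 4157 to 4369 in controls. Ly86 was at 1.20, Pou2af1 at 0.91, H2-Eb1 at 0.91 (limma adjusted p = 0.000751), H2-Aa at 0.82 and Cd74 at 0.28. The B cell marker that fell was Cr2, a complement receptor, at -0.59 (limma adjusted p = 0.0037). Others of the list were below 0 without passing, at -0.29 for the B lineage factor Pax5, -0.29 for the receptor chain Cd79a, -0.28 for Blk, -0.26 for Vpreb3 and -0.16 for Ebf1 (limma adjusted p = 0.123 to 0.477). Above 0 without passing were Cd79b (0.23, limma adjusted p = 0.19) and Fcrla (0.19, limma adjusted p = 0.361, other probe sets 0.53 to 0.75). Ms4a1, at 0.998, did not pass with no mean-variance trend (limma adjusted p = 0.0519), without USP7-titled replicate 2 (0.69, limma adjusted p = 0.0665) or control replicate 1 (0.69, limma adjusted p = 0.0815), and Cd74 did not pass without USP7-titled replicate 2 (0.22, limma adjusted p = 0.0539). CD8 T and NK markers rose in 6 of 13 and fell in 1, summing to 14567 to 15277 in USP7-titled arrays and 4254 to 4366 in controls, led by Gzmb (3.29), Gzma (3.21) and Nkg7 (2.76). Most of the sum in USP7-titled arrays, though not in controls, came from Gzmb and Nkg7, at 10742 to 11559 in USP7-titled arrays and 1290 to 1519 in controls. The other 11 members summed to 3537 to 3985 in USP7-titled arrays and 2846 to 2983 in controls. The marker that fell was the perforin gene Prf1 at -0.45 (limma adjusted p = 0.00246). Tyrobp (1.85, limma adjusted p = 1.73e-07), Fcer1g (0.95, limma adjusted p = 0.000117) and Gzmk (0.58, limma adjusted p = 0.00966) also rose. The CD8 chains Cd8a (0.02) and Cd8b1 (-0.23) did not pass. Neither did the NK receptors Ncr1 (-0.15), Klrk1 (-0.26) and Klrd1 (0.19), nor the transcription factor Eomes (-0.52, other probe set 0.34). Their limma adjusted p ran from 0.0899 to 0.944. Dendritic cell markers rose in 5 of 10 and fell in 1, summing to 2911 to 3024 in USP7-titled arrays and 2185 to 2252 in controls. Tcf4 rose 2.01-fold on the linear scale, with other probe sets at log2 changes of 0.05 to 1.01. As log2 changes, Clec10a (0.98) and Bst2 (0.63) were higher and Zbtb46 (-0.96) lower. Clec10a, at 4.91 to 6.56, lay below the array medians of 7.91 to 7.96. Irf8, at 0.37, passed without control replicate 2 (limma adjusted p = 0.0312) and did not pass with any one of the other 5 arrays left out (limma adjusted p = 0.0514 to 0.139). Cd209a (-0.30), Xcr1 (-0.25), Batf3 (-0.05) and Flt3 (0.29) did not pass (limma adjusted p = 0.138 to 0.835). T cell and Treg markers fell in 7 of 10 and rose in 0, summing to 51270 to 51717 in USP7-titled arrays and 63646 to 65715 in controls. Foxp3, Ctla4 (-0.36) and Cd28 (-0.30) were at the head. The loss of the bright Foxp3 signal is part of the fall of that sum, and the median change of the list was -0.15. Under spike scaling 3 of these 10 passed, without control replicate 2 it was 4, and with no mean-variance trend 2. Cd28 did not pass under spike scaling (-0.14, limma adjusted p = 0.256), with no trend (limma adjusted p = 0.0676), or without control replicate 1 (-0.26, limma adjusted p = 0.066) or control replicate 2 (-0.24, limma adjusted p = 0.0693). The deposited values hold no detection calls, so no marker can be called absent, and the part of these markers in the Ikaros family values was not tested.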

How the data were processed

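Biotin-labelled RNA (100 ng of total RNA per sample, per the labels) was hybridised to 6 Affymetrix-type arrays. The authors deposited 1 log2 value per probe set; the base was read from the values (2.21 to 14.47), and how the authors summarised and normalized them is not given in the sources used. They were analysed as deposited. If arrays were scaled alike, a shift shared by most transcripts would not be seen.

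Array controls (64 of 22690 probe sets) were left out; 20380 had 1 symbol, 691 several and 1555 none in the platform annotation, and 20351 matched the reference (GRCm38.p6) by gene identifier. Values of different probe sets were subtracted within arrays or summed only to set the groups side by side, not to rank transcripts by abundance; brighter and dimmer refer to signal. The group difference was fitted in R 4.3.3 with limma 3.58.1 (eBayes with trend, two-sided, Benjamini-Hochberg, threshold 0.05): member probe sets among all 22626 gene probe sets, list genes in a fit over 12393 genes with the probe set of highest mean. Exact permutation tests ran over arrays. The code was tested on simulated data. Array number, 3 per group, limits precision; the median residual SD was 0.136.

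Members and lists were chosen with earlier results of these data known. From each list of linked genes the text names up to 4 genes past the threshold with the largest change, and from each marker list up to 3 and the 2 brightest. Any other list gene (Cd3e, Cd3g, Cd5, Il2ra, Tnfrsf18, Cr2, Pax5, Cd79a, Cd79b, Blk, Vpreb3, Ebf1, Fcrla, H2-Eb1, Elane, Mpo, Itgam, Cd14, Cd68, Cd163, Prf1, Tyrobp, Fcer1g, Gzmk, Cd8a, Cd8b1, Ncr1, Klrk1, Klrd1, Eomes, Cd209a, Xcr1, Batf3, Flt3, Rag1, Il17a, Il2, Ctbp1, Cul4a, Cul4b, Gata1, Lef1, Satb1, Irf4) was chosen after its values were seen. Alternatives were normalization, filters, variance models, array weights, a replicate block, thresholds, sex-linked genes left out and each array left out.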

Additional observations from a re-analysis of the deposited data

How the results depend on the processing

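Both Ikzf4 probe sets fell and passed in every alternative run at the threshold of 0.05: the brighter at -0.81 to -0.59 in 17 alternatives (limma adjusted p up to 0.00116) and the dimmer at -0.74 to -0.48 in 15 (limma adjusted p up to 0.00867). Ikzf2 kept its direction in 17 (-0.27 to -0.05) and passed in 9, and Ikzf1 passed in 1 of 17. Beside the 4 arrays named in the report, Ikzf2 did not pass with centring on array medians (limma adjusted p = 0.0536), without the trend (limma adjusted p = 0.112) or with the replicate block. The Ikzf1 change turned to 0.10 under spike scaling, where the all-gene median was 0.11. Relative to the all-gene median Ikzf1 was at -0.01, Ikzf2 at -0.16 and the Ikzf4 probe sets at -0.70 and -0.59 with and without that scaling. The scaling subtracts the same value from every probe set of an array, so these figures could not differ. The causes of the shift and of the other changes between settings were not tested.

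Leaving out each array in turn gave 2 to 4 member probe sets past the threshold, 35 to 39 listed genes and 3201 to 4020 of all genes. The differences between members ran from -0.74 to -0.62 for Ikzf4 minus Ikzf1, -0.59 to -0.46 for Ikzf4 minus Ikzf2, -0.18 to -0.10 for Ikzf2 minus Ikzf1 and -0.19 to 0.0116 between the Ikzf4 probe sets. At adjusted p under 0.01, 2695 genes passed, against 4078. Of the named list genes, Cd3d turned to 0.0890 under spike scaling and Cd4 to -0.0690 when probe sets were averaged, and neither had passed; Cd4 passed under spike scaling (0.17, limma adjusted p = 0.0335). Cops5 did not pass when its probe sets were averaged (0.06, limma adjusted p = 0.823).

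No label used here says whether replicate numbers pair the samples. Deviations of same-numbered arrays correlated at 0.07, -0.05 and 0.09, and 3 of 6 arrays correlated best with their own number. With 3 arrays per group this check cannot exclude pairing. With the replicate block 2 member probe sets, 39 listed genes and 4059 genes passed (Ikzf2 limma adjusted p = 0.0568).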
